A study of Arabidopsis thaliana with 59 samples.

Results

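The genes described here are core parts of the Arabidopsis circadian clock. They were chosen by name, 10 loci in all: CCA1 (AT2G46830), LHY (AT1G01060), PRR9 (AT2G46790), PRR7 (AT5G02810), PRR5 (AT5G24470), PRR3 (AT5G60100), TOC1 (AT5G61380), GI (AT1G22770), ELF3 (AT2G25930) and LUX (AT3G46640). Of these, 8 have values among the 20728 loci of the deposited table, and PRR9 and LUX were not analysed here. The values come from rosette leaves of 10 spring annual accessions (Bur-0, CIBC-17, Col, HR-5, KNOX-18, Ler, NFA-10, SQ-8, Ts-1 and Ws-2), each kept wet or let dry slowly in pots filled with a porous ceramic. Days had 10 h of light, with 23 C by day and 18 C by night. About 90% of the water remained in wet pots, whereas dry pots came down to about 50% by day 5. The titles number 3 replicates in each of the 20 groups, apart from KNOX-18 dry, which has numbers 1 and 3, so 30 wet and 29 dry arrays entered the work. No transgene, mutation or added agent is labelled in any group. The labels do not say what a shared replicate number marks, whether replicates were single plants or pools, or at what hour leaves were taken.

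The plant clock is a loop of genes that repress one another at different times of day. CCA1 and LHY encode related MYB transcription factors that accumulate around dawn and repress genes of the afternoon and evening. The pseudo-response regulators PRR9, PRR7 and PRR5 follow through the day and repress CCA1 and LHY, TOC1 does so in the evening, and PRR3 protects TOC1 protein from degradation. GI, a large protein of the late afternoon, stabilises the F-box protein ZTL, and ELF3 is the scaffold of the evening complex that it forms with ELF4 and LUX. In leaves this loop times photosynthetic, growth and stress genes, so a clock transcript depends strongly on the hour at which a leaf is sampled.

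Each value is 1 locus on 1 array on a log2 scale, and array medians lay between 5.496 and 5.621. Values can be compared between arrays for a gene, but not between genes. PRR5, PRR3 and ELF3 lay low on the scale, with means at the 30.2, 35.3 and 37th percentile of all locus means, while LHY stood at the 91.4 percentile. In bulk leaf samples, fewer cells of a type and less RNA per cell cannot be told apart. The leaf genes RCA, GAPA and PSAF lay at or above the 99.9 percentile of locus means, and the floral genes AP3, PI and AG at or below the 13.6 percentile. The 4 root genes ranged from the 18 to the 42.1 percentile, and the guard cell genes MYB60, FAMA and KAT1 from the 26.2 to the 35.5 percentile. The root and floral genes were not called for drying.

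A pair of arrays stood apart in the clock genes. Among the wet arrays of number 3, PRR5 was 6.476 in Col and 6.325 in Ler against 4.163 to 4.758 in the other 8 accessions. TOC1 was 7.104 in Col and 7.641 in Ler against 5.372 to 6.492 in the others, and PRR7 was 9.287 and 10.03 against 7.617 to 8.234. GI (7.689 and 8.102 against 6.262 to 7.317) and ELF3 (5.34 and 5.587 against 4.561 to 4.859) were also higher on both. PRR3 was high in Ler alone, at 6.79, with Col at 4.551 inside the range of the others (4.176 to 4.799). CCA1 in Ler was 4.243, below the others (5.4 to 6.851), and Col lay inside at 5.844. LHY was 6.978 in Col and 5.98 in Ler, below the others (6.987 to 8.693), narrowly so in Col. Over all loci, Ler wet 3 had the largest deviation of any array from the fit with replicate number and watering (root mean square 0.3681), whereas Col wet 3 ranked 19 of 59 (0.2032). One label of Col wet 3 carries the stock number given for Ws-2, but over the 500 loci that differed most among accessions all 59 arrays, this one included, were closest to their titled accession. What sets these arrays apart was not tested, and the results that rest most on them are given with and without them.

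The first comparison asked how the clock genes differed between arrays of different replicate number, because drying is compared within a number below. All 8 genes differed between numbers (limma moderated F test with 1 mean per group plus replicate number, adjusted p under 0.05), where 30% of all loci did. CCA1 and LHY were far lower in number 3 than in number 1, and the other 6 genes were higher. For number 3 minus number 1, limma called 6 members higher (13.2% of all loci) and 2 lower (17.2%), with a median over the 8 genes of 0.84 on the log2 scale against -0.005 over all loci. For number 2 minus number 1 it called 3 members higher, namely PRR7, GI and ELF3 (8.39% of all loci), and again CCA1 and LHY lower (10.8%). For number 3 minus number 2 it called 5 higher, all but PRR7 of the 6 (2.42% of all loci), and the same 2 lower (2.8%). With the wet arrays fitted alone, the differences of number 2 from number 1 in PRR7, GI and ELF3 were not called (limma adjusted p = 0.0575, 0.157 and 0.835).

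**Figure D1:**
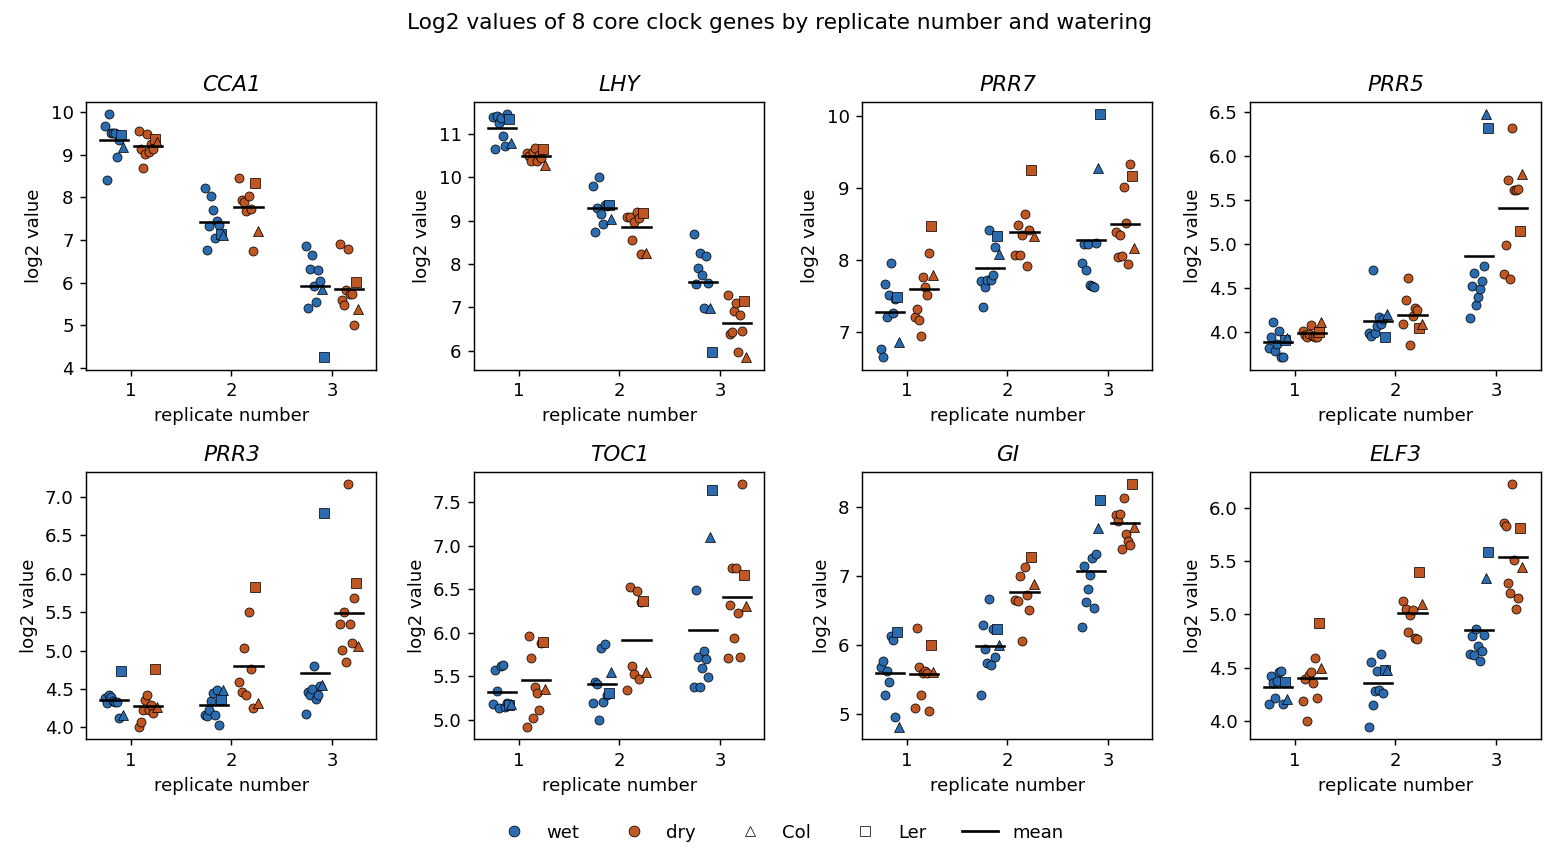
Log2 values (y axis) of each clock gene by replicate number (x axis), in wet (blue) and dry (orange) leaves. Each point is 1 array, triangles are Col, squares are Ler, and lines are means. CCA1 and LHY of numbers 1 and 3 do not overlap, and the blue triangle and square of number 3 stand above the other wet arrays for PRR7, PRR5 and TOC1.

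CCA1, the dawn MYB factor, ran from 8.414 to 9.945 (median 9.479) in the 10 wet arrays of number 1, from 6.76 to 8.221 (median 7.336) in number 2 and from 4.243 to 6.851 (median 5.981) in number 3. In dry leaves the medians were 9.194, 7.899 and 5.742. The wet arrays of the 3 numbers overlapped only between numbers 2 and 3, and in dry leaves the same 2 numbers overlapped. Number 3 minus number 1 was -3.40 ± 0.12 (SE) on the log2 scale, a 10.5-fold difference (limma adjusted p = 7.34e-24).

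LHY, the partner and close relative of CCA1, had wet values of 10.66 to 11.45 (median 11.29) in number 1, 8.727 to 10 (median 9.312) in number 2 and 5.98 to 8.693 (median 7.655) in number 3. Its dry values were 10.29 to 10.67 (median 10.5), 8.227 to 9.195 (median 9.051) and 5.846 to 7.286 (median 6.638). The 3 numbers were separate at each watering level. Number 3 lay below number 1 by 13.04-fold (-3.70 ± 0.12, limma adjusted p = 1.64e-25). CCA1 and LHY arrays moved together: over the 59 arrays, deviations from the group means had r = 0.99, and r = 0.759 once the number was also taken out, given as a description.

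Among the pseudo-response regulators, PRR7 had wet medians of 7.361, 7.755 and 8.085 in numbers 1, 2 and 3 and dry medians of 7.571, 8.342 and 8.37. Number 3 was above number 1 by 0.95 ± 0.13 (limma adjusted p = 1.29e-07). The wet ranges of numbers 1 (6.642 to 7.963) and 3 (7.617 to 10.03) overlapped. PRR7 also differed between numbers 2 and 1 (0.70 ± 0.13, limma adjusted p = 0.000112), but not between 3 and 2 (0.25 ± 0.13, adjusted p = 0.311).

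PRR5 lay between 3.714 and 4.708 in wet leaves of numbers 1 and 2 and between 4.163 and 6.476 in number 3. In dry leaves of number 1 it hardly varied, at 3.941 to 4.115, and in dry leaves of number 3 it ran from 4.604 to 6.321 (median 5.617). All 10 dry arrays of number 3 were above all dry arrays of number 1. Number 3 minus number 1 was 1.20 ± 0.13 (limma adjusted p = 1.41e-09), while number 2 minus number 1 was 0.23 ± 0.13 (adjusted p = 0.23).

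PRR3 differed between numbers 3 and 1 by 0.78 ± 0.14 (limma adjusted p = 1.5e-05). In wet leaves its medians were 4.342, 4.283 and 4.48, and in dry leaves 4.252, 4.588 and 5.348. The 10 dry arrays of number 3 (4.855 to 7.168) lay above the 10 of number 1 (4.004 to 4.766). With the wet arrays fitted alone, the difference was 0.35 ± 0.17 (limma adjusted p = 0.15), and with the dry arrays alone it was 1.21 ± 0.16 (limma adjusted p = 1.07e-05).

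TOC1, the evening repressor of CCA1 and LHY, had wet medians of 5.186, 5.358 and 5.71 and dry medians of 5.365, 5.618 and 6.312 in numbers 1, 2 and 3. Ranges of the numbers overlapped at each watering level. Number 3 minus number 1 was 0.83 ± 0.12 (limma adjusted p = 1.12e-06), and 0.68 ± 0.10 without Col wet 3 and Ler wet 3 (limma adjusted p = 4.75e-07).

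GI had the widest difference of the 6 genes that were higher in number 3, at 1.84 ± 0.13 or 3.58-fold (limma adjusted p = 9.59e-15). Its wet values were 4.803 to 6.184 (median 5.648) in number 1 and 6.262 to 8.102 (median 7.082) in number 3. Its dry values were 5.042 to 6.245 (median 5.596), 6.051 to 7.276 (median 6.715) and 7.392 to 8.334 (median 7.754). Numbers 1 and 3 were separate at each watering level.

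ELF3 ran from 4.156 to 4.463 (median 4.36) in wet leaves of number 1 and from 4.561 to 5.587 (median 4.75) in number 3. In dry leaves it ran from 3.997 to 4.92 (median 4.414), from 4.768 to 5.395 (median 5.039) and from 5.054 to 6.223 (median 5.479). Numbers 1 and 3 did not overlap in wet or in dry leaves. The difference of number 3 from number 1 was 0.84 ± 0.09 (limma adjusted p = 3.52e-10).

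**Figure D2:**
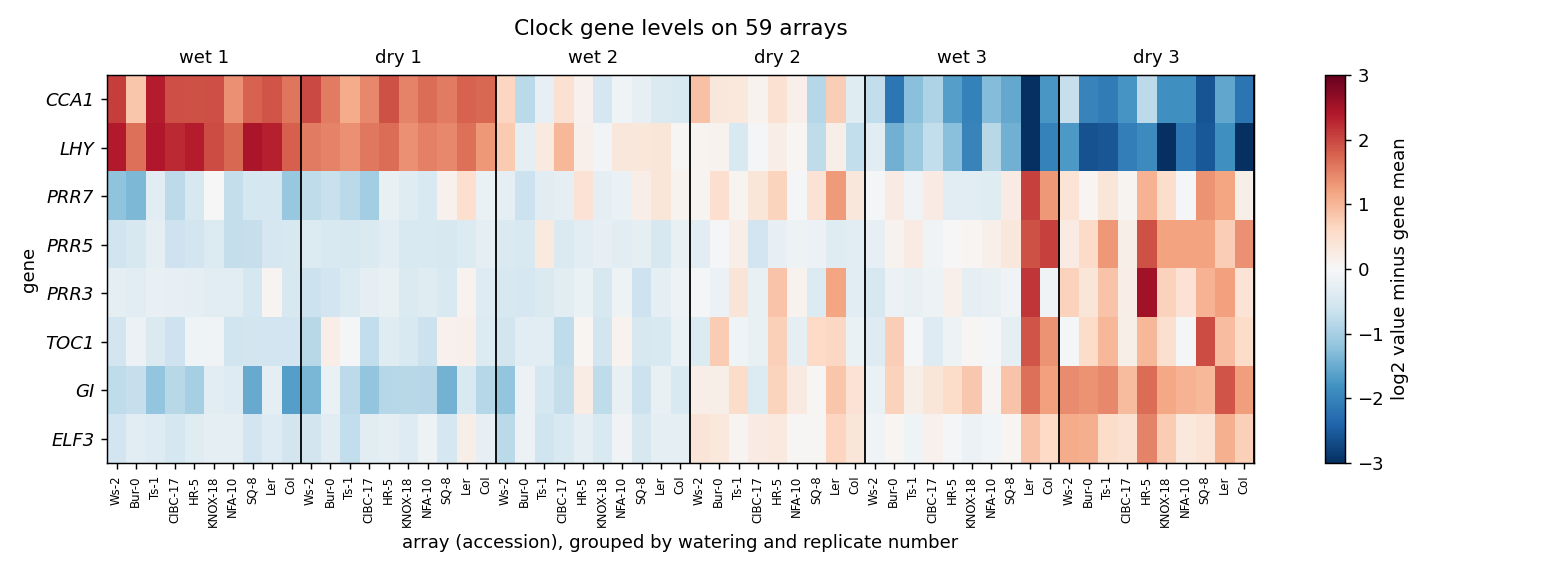
Log2 value minus the mean of the gene over all arrays (colour, ending at 3 in each direction) for 8 clock genes (rows) on 59 arrays (columns), ordered by replicate number, watering and accession. CCA1 and LHY are high in number 1 and low in number 3, the other 6 genes run the other way, and Ler wet 3 and Col wet 3 stand out among the wet arrays of number 3.

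The members fell into opposite sets across the arrays. Deviations from the group means of CCA1 or LHY ran against those of the other 6 genes in all 12 pairs (r from -0.928 to -0.669 over 59 arrays), and the 15 pairs among the other 6 genes ran together (r from 0.657 to 0.917). These values share the difference between numbers. With the number also taken out, the 15 pairs had r from 0.38 to 0.763 and the 12 opposite pairs r from -0.602 to 0.123. They are descriptions, and all genes of an array share its sample.

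The second comparison asked which clock genes changed with drying, as the mean over the 10 accessions of dry minus wet. In the fit with no term for replicate number, ELF3 and PRR3 were called higher in dry leaves and no member was called lower. That is 2 of 8 members higher (15.5% of all loci) and 0 lower (13.8% of all loci). With replicate number as a term, 5 members were higher (17.9% of all loci) and 1 was lower (16.3% of all loci). In the fit with no such term, the median of the 8 genes was 0.34 on the log2 scale, against -0.003 over all loci. ELF3 ran from 3.94 to 5.587 (median 4.464) in 30 wet arrays and from 3.997 to 6.223 (median 5.039) in 29 dry arrays, a rise of 0.47 ± 0.13 or 1.39-fold (limma adjusted p = 0.00441). PRR3 ran from 4.033 to 6.79 (median 4.378) in wet and from 4.004 to 7.168 (median 4.763) in dry leaves, a rise of 0.41 ± 0.15 (limma adjusted p = 0.0365). Wet and dry arrays overlapped for both genes. Of the 13 marker genes, the leaf gene GAPA (0.41 ± 0.09, limma adjusted p = 0.000568) and the guard cell gene KAT1 (0.39 ± 0.09, adjusted p = 0.000516) were also called, both higher in dry leaves, while the leaf genes RCA and PSAF and the guard cell genes MYB60 and FAMA were not. The part of such cells in the clock gene differences was not tested. The call of PRR3 was lost without KNOX-18 (0.40 ± 0.16, limma adjusted p = 0.0576) and without any 1 of 13 arrays, namely the 10 dry arrays of number 3, Ler wet 1, Ler wet 2 and Ler dry 2 (adjusted p = 0.0505 to 0.0859).

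The other 6 genes did not pass this test. Dry minus wet was 0.48 ± 0.26 for GI (limma adjusted p = 0.173), 0.34 ± 0.15 for TOC1 (adjusted p = 0.0862), 0.33 ± 0.16 for PRR7 (adjusted p = 0.124), 0.26 ± 0.20 for PRR5 (adjusted p = 0.345) and 0.04 ± 0.45 for CCA1 (adjusted p = 0.964). LHY had the opposite sign, at -0.70 ± 0.49 (adjusted p = 0.304). At an unadjusted p under 0.05, 4 members were higher and 0 lower, with no share of all loci counted at that level. The standard errors of this fit include the differences between replicate numbers, so they are widest for CCA1 and LHY. With replicate number as a term, the members called higher were PRR7, PRR3, TOC1, GI and ELF3. LHY was then called lower, at -0.70 ± 0.10 (limma adjusted p = 2.56e-07). Without Col wet 3 and Ler wet 3, and with no number term, 5 members were called higher (17.2% of all loci) and 0 lower (15.6% of all loci). Those added to ELF3 and PRR3 were PRR7 at 0.47 ± 0.14, TOC1 at 0.47 ± 0.12 and PRR5 at 0.42 ± 0.17 (limma adjusted p = 0.00906, 0.00146 and 0.0486). The wet arrays of Col and Ler then lack number 3, so dry minus wet in this fit also holds part of the difference between numbers. That part is upward for the genes higher in number 3 and downward for CCA1 and LHY.

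**Figure D3:**
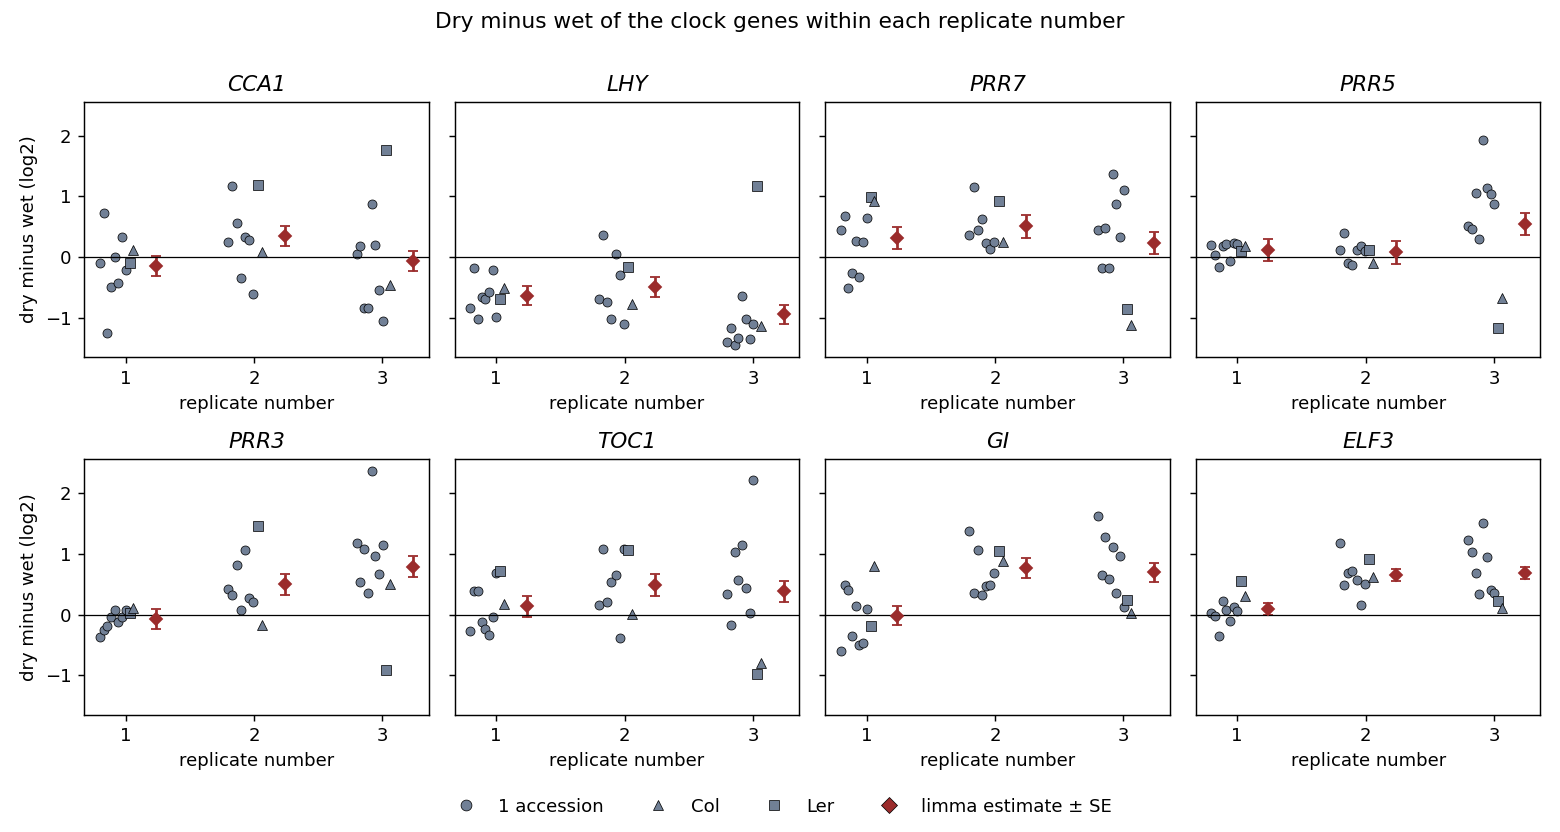
Dry minus wet on the log2 scale (y axis) within each replicate number (x axis). Grey points are accessions, with Col as triangles and Ler as squares, and red diamonds are limma estimates with their SE. LHY lies below 0 in all 10 accessions of number 1, ELF3 and GI lie above 0 in all accessions of numbers 2 and 3, and Ler and Col of number 3 lie below all other accessions for PRR7, PRR5 and TOC1.

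Drying was then taken within each replicate number. In number 1, limma called 1 of 8 members lower (13.8% of all loci) and 0 higher (12.9% of all loci). In number 2 it called 3 higher (11.7% of all loci) and 1 lower (8.32% of all loci), and in number 3 again 3 higher (4.43% of all loci) and 1 lower (4.54% of all loci). The gene that was lower was LHY each time, and those that were higher were PRR3, GI and ELF3.

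LHY in number 1 was 10.66 to 11.45 in wet and 10.29 to 10.67 in dry leaves, so the ranges met only at their edge. Dry was lower than wet in all 10 accessions, with dry minus wet from -0.1875 in Bur-0 to -1.018 in Ts-1. LHY fell by 0.64 ± 0.16 in number 1 (limma adjusted p = 0.00218), by 0.49 ± 0.16 in number 2 (adjusted p = 0.0297) and by 0.95 ± 0.16 in number 3 (adjusted p = 9.36e-05). In number 2 dry was lower in all but 2 of 9 accessions, and that call was lost without any 1 of CIBC-17 wet 2, Ler wet 2, Col wet 2, Ts-1 dry 2 or SQ-8 dry 2 (adjusted p = 0.0525 to 0.0831). In number 3 the exception was Ler, at 1.171 higher in dry, and the other 9 accessions were lower. Without Col wet 3 and Ler wet 3 the fall in number 3 was -1.20 ± 0.12 (limma adjusted p = 3.05e-08).

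CCA1 was not called in any number. Dry minus wet was -0.15 ± 0.16 in number 1 (limma adjusted p = 0.585), 0.35 ± 0.17 in number 2 (adjusted p = 0.146) and -0.07 ± 0.16 in number 3 (adjusted p = 0.883), with dry higher in 3 of 10, 7 of 9 and 5 of 10 accessions. Since a call in 1 gene and not in its partner is no test of their difference, LHY minus CCA1 was taken on each array and compared between dry and wet within number. This test was chosen after the values were seen. The drying difference of LHY was below that of CCA1 in 10 of 10 accessions, by a mean of -0.72 (SD 0.21, range -1.05 to -0.45; two-sided exact sign-flip permutation test over accessions, p = 0.00195, the smallest that 1024 sign patterns can give). By number, LHY moved below CCA1 in 9 of 10, 9 of 9 and 10 of 10 pairs of arrays. The mean was -0.74 without Col wet 3 and Ler wet 3.

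ELF3, the evening complex scaffold, differed little between dry and wet in number 1 (0.09 ± 0.10, limma adjusted p = 0.587). It rose in number 2 by 0.65 ± 0.10 (adjusted p = 1.72e-05), with dry higher in 9 of 9 accessions by 0.1533 to 1.185, and in number 3 by 0.68 ± 0.10 (adjusted p = 1.02e-05), with dry higher in 10 of 10 by 0.1064 to 1.517. The wet and dry ranges of number 2 (3.94 to 4.625 and 4.768 to 5.395) did not overlap. The drying difference itself differed between the 3 numbers (limma F test of watering by number, adjusted p = 0.00667).

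GI, too, had its smallest drying difference in number 1. Its drying difference was -0.02 ± 0.16 in number 1 (limma adjusted p = 0.949), with 5 of 10 accessions higher in dry. It rose by 0.77 ± 0.16 in number 2 (adjusted p = 0.000779; 9 of 9 higher, by 0.3184 to 1.385) and by 0.69 ± 0.16 in number 3 (adjusted p = 0.00301; 10 of 10 higher, by 0.02246 to 1.618). The smallest of the number 3 differences were those of Col (0.02246), CIBC-17 (0.124) and Ler (0.2324). The watering by number test gave an adjusted p = 0.0348 in limma, which was lost without KNOX-18 (0.0789) or without any 1 of Ws-2 wet 1, CIBC-17 wet 1, KNOX-18 wet 1, NFA-10 wet 1, Ws-2 dry 1, HR-5 dry 1 or SQ-8 dry 1 (0.0637 to 0.0751).

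PRR3, the partner of TOC1 protein, was at -0.07 ± 0.17 in number 1 (limma adjusted p = 0.811). It rose in number 2 by 0.50 ± 0.17 (adjusted p = 0.038; 8 of 9 higher) and in number 3 by 0.79 ± 0.17 (adjusted p = 0.00169; 9 of 10 higher), but with number 3 fitted alone that rise was not called (0.79 ± 0.24, limma adjusted p = 0.0961). Ler went against the others in number 3, at -0.915, and HR-5 had the highest value, at 2.369. The call in number 2 was lost with array medians centred (adjusted p = 0.0538), without KNOX-18 (0.0539), or without any 1 of 11 arrays of number 2, wet ones of Bur-0, Ts-1, KNOX-18, SQ-8 and Ler and dry ones of Bur-0, CIBC-17, Ler, NFA-10, Ts-1 and Ws-2 (0.0503 to 0.119). The watering by number test gave an adjusted p = 0.0481 in limma, at the edge of the threshold: it was lost without any 1 of 46 of the 59 arrays (0.0503 to 0.102), with array medians centred (0.0646), with quantile normalization (0.0568) and without KNOX-18 (0.105).

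In all, 3 of 8 members had a drying difference that differed between numbers, where 6.32% of all loci did. Without Col wet 3 and Ler wet 3 there were 5 (6.14% of all loci), since LHY (limma adjusted p = 0.0154) and PRR5 (adjusted p = 0.00115) joined PRR3, GI and ELF3.

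PRR7, PRR5 and TOC1 depended most on the array pair. PRR5 in number 3 was at 0.54 ± 0.18 (limma adjusted p = 0.0507), with dry higher in 8 of 10 accessions and lower in Col (-0.6816) and Ler (-1.176). Without Col wet 3 and Ler wet 3 it was higher in dry in 8 of 8 accessions, by 0.2979 to 1.926, at 0.93 ± 0.12 (adjusted p = 1.56e-06). TOC1 in number 3 was at 0.38 ± 0.18 (adjusted p = 0.193) with them and at 0.73 ± 0.12 (adjusted p = 0.000116) without, and PRR7 at 0.23 ± 0.18 (adjusted p = 0.534) and 0.55 ± 0.15 (adjusted p = 0.0126). Without these arrays 6 members rose with drying in number 3 (5.97% of all loci) and LHY fell (6.02% of all loci were lower), CCA1 alone not being called (-0.24 ± 0.14, adjusted p = 0.307). In number 2, TOC1 (0.49 ± 0.18, limma adjusted p = 0.0522) and PRR7 (0.50 ± 0.19, adjusted p = 0.0547) were just outside the threshold with all arrays, while PRR7 was higher in dry in 9 of 9 accessions and TOC1 in 8 of 9. PRR5 in number 2 was at 0.08 ± 0.19 (adjusted p = 0.823).

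The third comparison asked whether the drying difference differed among accessions, and whether the genes changed in any single accession. With limma, 0 of 8 members passed the interaction test (0.27% of all loci did), and at an unadjusted p under 0.05 there were also 0, the smallest p being 0.573 for TOC1. Of the 80 pairs of gene and accession, 0 were called for drying (1.12% of all such pairs over all loci) and 2 had an unadjusted p under 0.05. Replicate number was not a term in this fit, so its standard errors hold the differences between numbers. The lack of calls therefore does not show that single accessions did not change. With replicate number as a term, 3 of the 80 pairs were called for drying, and the interaction test again passed 0 members. The share of all loci was not counted for either of these results. Dry was above wet in the mean of all 10 accessions for PRR7, PRR3, GI and ELF3, in 8 of 10 for PRR5 and TOC1, in 6 for CCA1 and in 1 for LHY. These include the wet 3 arrays of Col and Ler, and they set KNOX-18 wet numbers 1, 2 and 3 against dry numbers 1 and 3. Taken within number, dry was higher in 9 of 10 accessions for GI and in 5 of 10 for CCA1, with the other genes unchanged. In KNOX-18, dry minus wet of GI was -0.5098 in number 1 and 0.3477 in number 3. The accession with the largest TOC1 difference was SQ-8, whose mean was 5.321 in wet and 6.648 in dry leaves (1.33 ± 0.47, limma adjusted p = 0.0884). HR-5 had the largest difference in PRR3, from 4.531 to 5.698 (1.17 ± 0.47, adjusted p = 0.289). In ELF3 the differences ran from 0.2259 in NFA-10 to 0.814 in Ws-2, and in GI from 0.1836 in CIBC-17 to 0.9147 in Ts-1. For LHY they ran from -1.074 in SQ-8 to 0.1006 in Ler.

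The fourth comparison set the accessions against one another, as means of wet and dry. With limma, 0 of 8 members passed (41.3% of all loci did), and 0 had an unadjusted p under 0.05, the smallest being 0.066 for PRR7. The differences between replicate numbers are part of the spread in this fit. With replicate number as a term, 6 of 8 members differed among accessions (52.5% of all loci), all but PRR5 (limma adjusted p = 0.218) and ELF3 (0.0623). Those 6 were PRR7 (0.000998), CCA1 (0.00128), LHY (0.00383), TOC1 (0.00701), PRR3 (0.00707) and GI (0.0282). Without Col wet 3 and Ler wet 3 there were 5 of 8 (52.3% of all loci), GI being lost (limma adjusted p = 0.0572).

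The means below come from the fit with no number term. PRR7 was highest in Ler (8.79 ± 0.26) and lowest in NFA-10 (7.67 ± 0.26), with SQ-8 (8.29), HR-5 (8.17), Col (8.08), KNOX-18 (7.92), Ts-1 (7.79), CIBC-17 (7.75), Ws-2 (7.68) and Bur-0 (7.67) between them. PRR3 was highest in Ler (5.39 ± 0.24) and HR-5 (5.12 ± 0.24), and the other 8 accessions lay between 4.411 and 4.641. CCA1 ran from 8.27 ± 0.70 in Ws-2 to 7.203 ± 0.70 in Bur-0, and LHY from 9.47 ± 0.76 in Ws-2 to 8.53 ± 0.76 in Col. TOC1 ran from 6.17 ± 0.23 in Ler to 5.29 ± 0.23 in Ws-2, GI from 7.02 ± 0.41 in Ler to 6.14 ± 0.41 in Ws-2, ELF3 from 5.09 ± 0.20 in Ler to 4.54 ± 0.20 in Ts-1 and PRR5 from 4.77 ± 0.30 in Col to 4.09 ± 0.30 in CIBC-17. In the order of accessions of each gene, 0 of the 9 gaps between neighbours reached 2 standard errors of this fit, which hold the differences between numbers. Without Col wet 3 and Ler wet 3, TOC1 was highest in Bur-0 (6.05, Ler 5.774), PRR3 in HR-5 (5.115, Ler 5.021) and PRR5 in Ts-1 (4.631, Col 4.37). LHY then ran from 9.673 in Ler to 8.56 in KNOX-18, and GI from 6.705 in Ler to 6.066 in Col. The highest and lowest accessions of CCA1, PRR7 and ELF3 stayed the same. The wet means of Col and Ler then lack number 3, so they also hold part of the difference between numbers. Against arrays of the same watering level and number, without the pair, LHY was highest in Ws-2 (mean deviation 0.4234, Ler 0.2575). GI was lowest in Ws-2 by that measure (-0.2855, Col -0.1369).

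**Figure D4:**
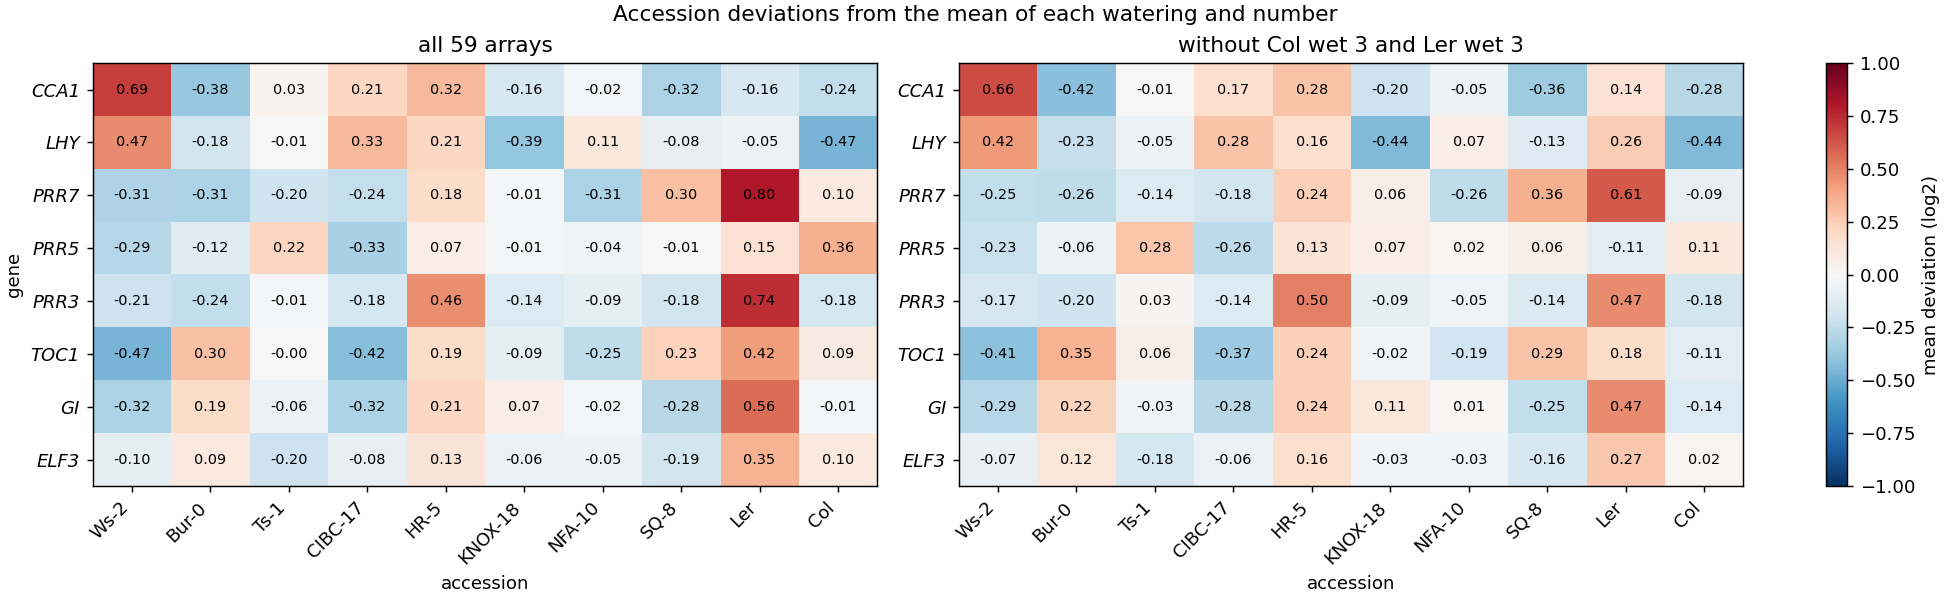
Mean deviation on the log2 scale (colour and printed value) of each accession (columns) from the mean of the arrays of its watering level and replicate number, for 8 clock genes (rows), with all 59 arrays (left) and without Col wet 3 and Ler wet 3 (right). In both panels Ws-2 is highest for CCA1 and lowest for TOC1 and Ler is highest for PRR7, GI and ELF3, whereas Ler leads PRR3 and TOC1 and Col leads PRR5 only in the left one.

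Set against the arrays of the same watering level and number, some accessions kept to 1 side. Ws-2 was above the mean for CCA1 in 6 of 6 such sets, by 0.3129 to 1.051, and for LHY in 6 of 6, by 0.05469 to 1.111. It was below the mean for TOC1 in 6 of 6 sets, as CIBC-17 was. Ler was above the mean in 6 of 6 sets for PRR7, PRR3, GI and ELF3, with deviations from 0.04883 to 0.7317 in ELF3 and from 0.2441 to 1.026 in GI. Col was below the mean for LHY in 6 of 6 sets, by mean deviation -0.4671. With all arrays, HR-5 for CCA1 and CIBC-17 for LHY were also above the mean in 6 of 6. KNOX-18 was below it in 5 of 5 for LHY and PRR3. Below it in 6 of 6 were also Ws-2, CIBC-17 and NFA-10 for PRR7, CIBC-17 for PRR5, Bur-0 for PRR3 and SQ-8 for ELF3. The lead of some accessions rested on the array pair. The mean deviation of Ler in TOC1 was 0.4195 with all arrays, where its wet 3 array alone was at 1.612, and 0.181 without the pair, below Bur-0 (0.3515), SQ-8 (0.2856) and HR-5 (0.242). In PRR5, Col led with 0.3558 and had 0.1058 without them, below Ts-1 (0.2797) and HR-5 (0.1338). In PRR3, Ler went from 0.74 to 0.4708, just below HR-5 (0.5014). Ler stayed above the mean in 5 of 5 remaining sets for PRR7, PRR3, GI and ELF3, as Ws-2 did in 6 of 6 for CCA1 and LHY. These are descriptions of 1 array per set and accession, and no test was made of them.

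Other clock genes were described from 2 further lists. The first held 33 genes that act with the core loop, of which 29 were measured, and the second 16 rhythmic output genes, all measured. Between numbers, 14 of the 29 and 15 of the 16 differed (30% of all loci, limma F test). For number 3 minus number 1, where 13.2% of all loci were higher and 17.2% lower, the first list had 6 higher and 8 lower of 29 (median 0.013) and the second 4 higher and 10 lower of 16 (median -0.45).

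**Figure D5:**
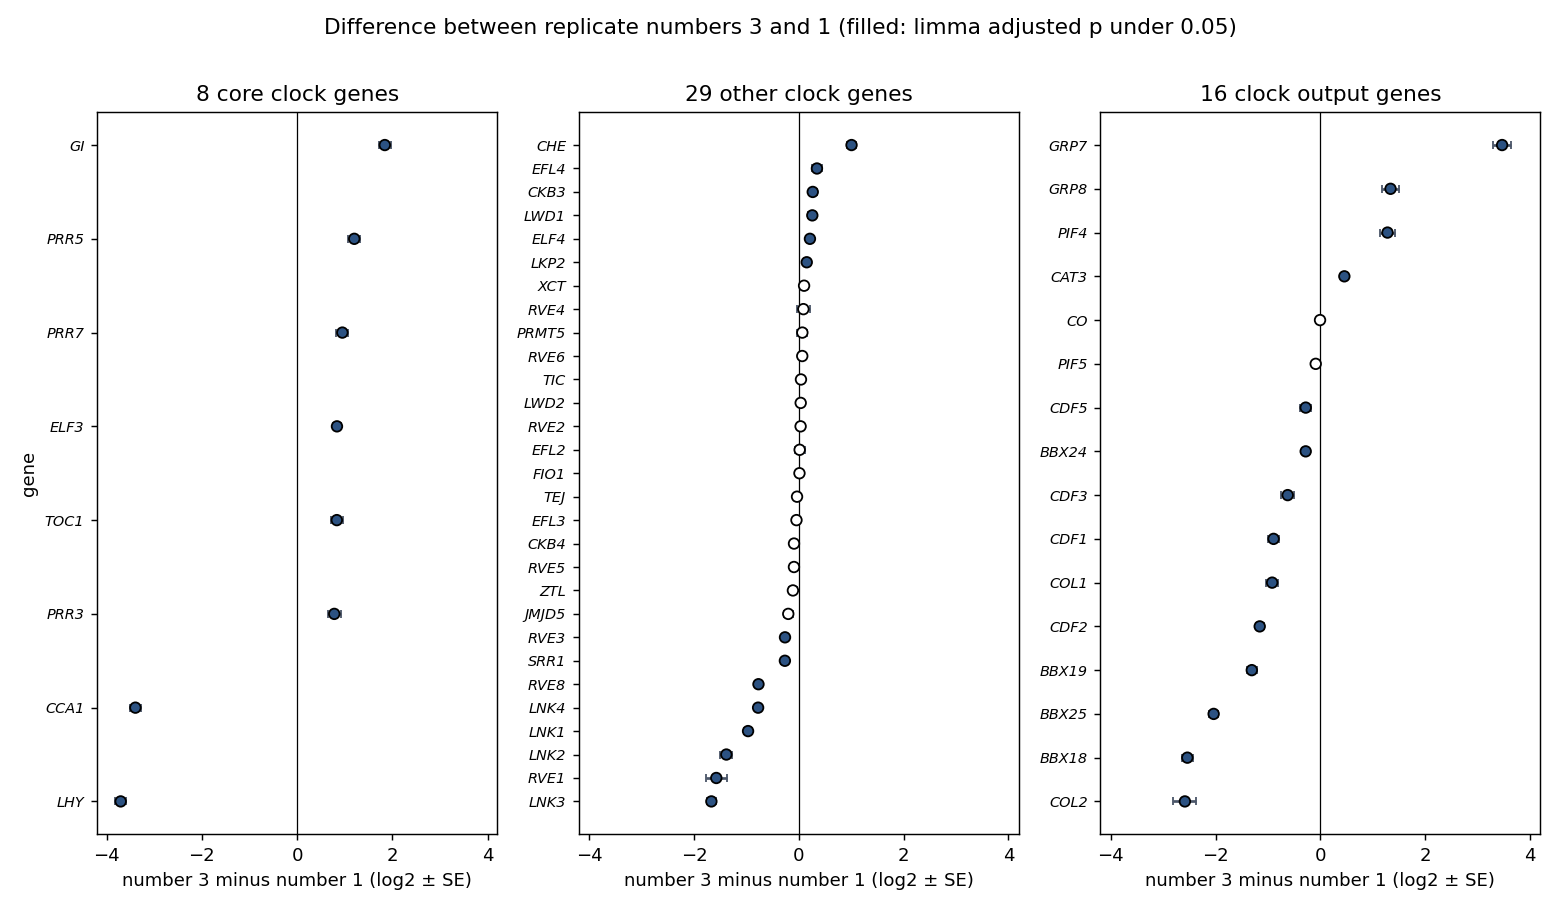
Number 3 minus number 1 on the log2 scale with its SE (x axis) for the core clock genes, 29 other clock genes and 16 output genes (y axis). Filled points passed limma's adjusted p of 0.05. The LNK genes lie on the side of CCA1 and LHY, and GRP7 and GRP8 on that of GI.

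Of the genes that work with the core loop, the coactivator genes LNK1, LNK2, LNK3 and LNK4, which are recruited by RVE proteins to evening genes, were lower in number 3 by -0.97 ± 0.08, -1.38 ± 0.12, -1.67 ± 0.09 and -0.78 ± 0.06 (limma adjusted p = 2.7e-13, 1.77e-12, 7.96e-18 and 2.81e-13). RVE8, a MYB activator related to CCA1, was lower by -0.77 ± 0.05 (adjusted p = 1.81e-15). CHE, named TCP11 in the reference table, which encodes a TCP factor that binds the CCA1 promoter, was higher by 1.01 ± 0.09 (adjusted p = 1.34e-11). Among outputs, GRP7, an RNA-binding protein gene of the evening, was higher by 3.47 ± 0.17 (adjusted p = 4.46e-19). The B-box genes BBX18, BBX19 and BBX25 were lower by -2.54 ± 0.11, -1.31 ± 0.09 and -2.04 ± 0.09, COL2 by -2.59 ± 0.22, and CDF2, a repressor of flowering genes, by -1.16 ± 0.08 (adjusted p = 4.85e-21, 1.28e-14, 4.85e-21, 2.59e-12 and 3.1e-15).

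With drying, 4 of the 29 clock-associated genes rose and 5 fell (15.5 and 13.8% of all loci). Replicate number was not a term in this fit, so its standard errors include the differences between numbers, for the outputs below as well. The RVE genes RVE4, RVE6 and RVE5, MYB factors of the same family as CCA1, rose by 0.55 ± 0.10, 0.34 ± 0.05 and 0.28 ± 0.06 (limma adjusted p = 5.76e-05, 4.04e-06 and 0.000479). EFL2, a relative of ELF4, fell by 0.60 ± 0.08 (adjusted p = 5.32e-07), CKB4, a regulatory subunit of casein kinase II, fell by 0.27 ± 0.05 (adjusted p = 2.62e-05) and LWD2, a WD-repeat gene, fell by 0.22 ± 0.05 (adjusted p = 0.000485). ELF4, the partner of ELF3, differed by 0.05 ± 0.04 (adjusted p = 0.405), and the GI partner ZTL by 0.05 ± 0.06 (adjusted p = 0.614). Within number, ELF4 differed by 0.005 ± 0.055 in number 1, -0.04 ± 0.06 in number 2 and 0.18 ± 0.06 in number 3 (limma adjusted p = 0.966, 0.702 and 0.031). Its watering by number test was not passed (limma F test, adjusted p = 0.141). Of the 16 outputs 1 rose and 1 fell: PIF4, a growth-promoting bHLH factor that the evening complex represses, rose by 0.91 ± 0.21 (adjusted p = 0.00104), and CDF5 fell by 0.68 ± 0.10 (adjusted p = 6.85e-07). The rise of PIF4 differed between numbers (limma F test of watering by number, adjusted p = 2.12e-05). It was 1.74 ± 0.13 in number 1, 0.44 ± 0.13 in number 2 and 0.55 ± 0.13 in number 3. Such a difference between numbers was called in 6 of the 16 outputs and 2 of the 29 clock-associated genes (6.32% of all loci). Within numbers 1, 2 and 3, limma called 6, 3 and 3 outputs higher in dry leaves (12.9, 11.7 and 4.43% of all loci). It called 1, 3 and 2 outputs lower (13.8, 8.32 and 4.54% of all loci). Of the 29 clock-associated genes it called 8, 5 and 1 higher and 4, 2 and 3 lower.

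The loci outside the 10 whose deviations from the group means were most like those of CCA1 over the 59 arrays were BBX25 (r = 0.974), LNK3 (0.962), the ascorbate synthesis gene VTC2 (0.961), the plastid phosphate transporter gene PHT2;1 (0.959) and BBX18 (0.957). With the replicate number also taken out, their r lay between 0.423 and 0.71. For TOC1 they were the succinic semialdehyde dehydrogenase gene ALDH5F1 (r = 0.917), BPC2 (0.863), G6PD4 (0.857), AGD13 (0.851) and ALDH6B2 (0.847), with r between 0.643 and 0.814 after the number was taken out. These are descriptions over arrays that share the differences between numbers.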

How the data were processed

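The authors deposited 1 log2 value per locus and array. MAS5 and RMA are named in the submitters' processing notes, with no version or role. How probes were assigned to loci, and on which platform, is not given in the sources used here, so no coordinates are printed. Values were used as deposited, for 20728 loci on 59 arrays, and 0 columns were left unused. Their precision is limited by the number of arrays. The members and gene lists were chosen with earlier results of these data known. Linear models were fitted to all loci with limma 3.58.1 in R 4.3.3 (lmFit, eBayes): 1 mean per accession and watering group (39 residual degrees of freedom), the same plus replicate number, and the same plus number by watering. P-values were adjusted by Benjamini-Hochberg over all loci within each comparison, with a threshold of 0.05. ± marks the SE of these fits. All 8 measured members are named; from each further clock list, the 6 smallest adjusted p-values past the threshold for drying and for replicate number (ELF4 and ZTL were added as partners of members, after their values were seen); and the 5 loci most like CCA1 and TOC1. Symbols come from a RefSeq table of TAIR10.1 or its synonyms. The tests were tried on simulated data with known changes. Nothing labels replicates as separate plants, so p-values measure the spread between these samples.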

Additional observations from a re-analysis of the deposited data

Results flagged for a closer look

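The difference between dry and wet leaves itself differed between replicate numbers for ELF3 (limma F test of watering by number, adjusted p = 0.00667), GI (adjusted p = 0.0348) and PRR3 (adjusted p = 0.0481). These are results in which groups of arrays differed in their response under the same contrast. The call of PRR3 was lost without any 1 of 46 of the 59 arrays, but stayed without Col wet 3 and Ler wet 3 (limma adjusted p = 0.00108). That of GI was lost without any 1 of 7 arrays, and both were lost without KNOX-18 (limma adjusted p = 0.105 and 0.0789). The call of ELF3 stayed when any 1 array was left out. ELF3 and GI were higher in dry leaves in every accession of numbers 2 and 3 (9 of 9 and 10 of 10), against 7 of 10 and 5 of 10 in number 1. What a replicate number marks was not given in the labels used here, and its part was not tested.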

How the results depend on the processing

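Same-numbered wet and dry arrays of an accession deviated together in 24 of 29 pairs (correlation over 0.1, range -0.2 to 0.564). Of 58 arrays with a partner, 46 correlated best with their own number. Arrays of a number thus shared part of their deviations, although the labels do not say what a number marks. With the replicate block, 5 members were higher with drying (17.9% of all loci), 1 was lower (16.3%), 6 differed among accessions (52.5%) and 3 pairs of gene and accession were called for drying, against 2, 0, 0 and 0; drying under the block was -0.70 ± 0.10 for LHY (limma adjusted p = 2.56e-07), 0.47 ± 0.07 for ELF3 (1.59e-06) and 0.47 ± 0.11 for GI (0.000463). Without KNOX-18, 1 member was higher with drying and 1 had a drying difference that differed between numbers. Without Col wet 3 and Ler wet 3, a setting chosen after seeing the data, these counts were 5 and 5, and 1 pair of gene and accession was called. With the replicate block as well, 5 differed among accessions. No share of all loci was counted for the called pairs in these settings, for the counts without KNOX-18 or with 1 array left out. Fitted alone, number 1 gave 0 higher and 1 lower with drying (9.71 and 9.73% of all loci), number 2 gave 4 and 1 (10.3 and 7.36%), and number 3 gave 2 and 1 (1.97 and 1.85%), PRR3 not being called in number 3 alone (0.79 ± 0.24, limma adjusted p = 0.0961). Leaving out 1 array at a time gave 1 to 4 members higher with drying, 0 to 1 differing among accessions, 0 to 1 called pairs and 1 to 4 with a drying difference that differed between numbers. The cause of these shifts was not tested. Of the values that turned sign, the mean dry minus wet of PRR3 was called with all arrays, and no value was called after it turned. Dry minus wet of CCA1 was 0.04 with all arrays, -0.18 without Col wet 3 and Ler wet 3, -0.15 in number 1 alone, -0.0664 in number 3 alone and -0.129 to 0.203 without 1 array. Its values without these arrays come from the fit with no number term, so they also hold part of the difference between numbers. In number 1 alone dry minus wet was -0.0734 for PRR3 and -0.02002 for GI, and GI in number 1 was 0.0344 without KNOX-18. Number 2 minus number 1 of PRR3 was -0.0697 in wet arrays alone. Without 1 array, dry minus wet ran from -0.143 to 0.0751 for GI in number 1, from -0.152 to 0.0442 for PRR3 in number 1 and from -0.0246 to 0.143 for PRR5 in number 2. Leaving out the dimmest 25% of loci, a mean-variance trend, quantile normalization and centred medians kept every count within 1.5 times of its value. In exact sign-flip permutation tests (two-sided) of differences within number over 10 accessions, 7 of 8 members had p from 0.00195 to 0.0371 (unadjusted), CCA1 being at 0.912. These tests were run on the members alone, so the share of all loci that would pass them is not known.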
